A study of Mus musculus with 10 samples.

Results

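Messenger RNA of 10 genes of the circadian clock was followed in mouse soleus, a calf muscle of mostly slow fibers, and in tibialis anterior (TA), a shin muscle of mostly fast fibers. The genes were chosen by name, as parts of the clock, with earlier results of these data known. Counts were summed over all annotated transcripts of each gene. The genes are Arntl, Clock, Per1, Per2, Per3, Nr1d1, Nr1d2, Bhlhe41, Dbp and Tef, 10 of the 20009 genes with counts. All mice were wild type, with 3 male and 2 female libraries per muscle, 10 in all. Replicate numbers within a sex were read as mice, which the labels do not state. On that reading 3 males and 2 females each gave a soleus and a TA library. Strain, age and the time of day at which the muscles were taken are not given in the sources used here.

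The clock is a feedback loop of transcription that runs in nearly every cell. CLOCK and BMAL1, the product of Arntl, bind DNA together at E-boxes and switch on the Per and Cry genes, whose proteins enter the nucleus and repress that pair. In a second loop the nuclear receptors REV-ERB alpha and beta, from Nr1d1 and Nr1d2, repress Arntl, while the proteins of Dbp and Tef pass the rhythm on at D-boxes. In skeletal muscle the clock is known for timing fuel use, and a transcript level depends on the hour of sampling.

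Of the 10 genes, 7 had enough counts to be tested. Of these, Bhlhe41 and Nr1d2 were called lower in soleus than in TA, as were 11.1% of all tested genes. Bhlhe41, which encodes DEC2, a repressor that competes for E-boxes, averaged 32.7 ± 8.92 CPM (counts scaled to library size) in soleus and 76.6 ± 19.3 CPM in TA (SD, n = 5 each). Nr1d2 averaged 139 ± 29.6 CPM in soleus and 197 ± 10.5 CPM in TA (SD, n = 5 each). None of the 7 tested was called higher in soleus, against 11% of all tested genes, and Arntl, Per1 and Per3 were not tested. Per2 was at like levels in the 2 muscles and spread widely among mice, with both female mice above all 3 males in each muscle, although its test among animals just missed the threshold.

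A promoter is shown for each of the 2 genes that differed, and for Per1, whose few counts lay mostly in TA. The sequences are from RefSeq (GRCm38.p6), cover bases within 250 before an annotated start site that lie outside exons, and are written 5′ to 3′ on the strand of the gene. Capitals mark the E-box CACGTG.
Bhlhe41 promoter, chr6:145865559-145865670, minus strand: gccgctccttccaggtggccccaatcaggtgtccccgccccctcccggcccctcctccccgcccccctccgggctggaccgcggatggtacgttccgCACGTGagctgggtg
Nr1d2 promoter, chr14:18239128-18239356, minus strand: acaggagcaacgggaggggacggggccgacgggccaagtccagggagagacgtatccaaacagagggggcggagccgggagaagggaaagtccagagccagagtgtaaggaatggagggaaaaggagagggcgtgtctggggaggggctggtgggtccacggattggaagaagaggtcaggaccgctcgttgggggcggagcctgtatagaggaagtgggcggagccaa
Per1 promoter, chr11:69098699-69098947, plus strand: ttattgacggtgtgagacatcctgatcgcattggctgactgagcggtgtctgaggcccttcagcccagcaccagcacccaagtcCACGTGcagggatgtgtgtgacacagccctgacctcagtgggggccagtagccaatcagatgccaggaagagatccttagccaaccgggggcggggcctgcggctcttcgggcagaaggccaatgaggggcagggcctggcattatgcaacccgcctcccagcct
The E-box of Bhlhe41 begins 153 bases before its start site and that of Per1 166 bases before. Another Per1 window, before a start site farther downstream, holds no E-box and is not shown. The Nr1d2 stretch holds no E-box, no D-box (TTANGTAA, searched on both strands) and no REV-ERB response element (the extended half-site by that name, searched on both strands). RefSeq gives 14 windows of 250 bases for 9 of the genes, and none was used for Per2. For the counts that follow, the windows of all genes were searched in full, with any exon bases in them. An E-box lies in 4 of the 14 windows, of Per1, Tef and Bhlhe41, against 6.02% of 32851 windows over all genes. A Tef window among these 4 begins within an exon. A D-box in the letters TTANGTAA lies in 1 window, that of Per3, against 2.06% of all windows, and the REV-ERB element in 0, against 2.04%. No other spelling of the D-box was searched, in Per1 or any other window. These matches describe letters and not bound sites.

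Counts per library totalled 726414 to 961844, and the 10 genes together took 254 to 571 of them. Muscle identity followed the labels: 8 of 8 slow-fiber genes were higher in soleus, with a summed level of 7406 to 9767 CPM in soleus libraries and 4.73 to 19.0 CPM in TA libraries, and 8 of 8 fast-fiber genes were higher in TA. The soleus library of female 2 stood apart. It listed 22862 transcripts, against 14993 to 16575 in the other 9 libraries, and its 254 counts on the clock genes were the fewest. Immediate early genes, which many stimuli switch on within minutes, summed to 4362 CPM there and to 472 to 654 CPM in the other 4 soleus libraries. In TA they summed to 2629 CPM in female 1 and 3846 CPM in female 2, against 630 to 685 CPM in the 3 males. Values of the 10 clock genes that leaving out soleus female 2 moves by over 1.5 times, or takes past the threshold, are given also without it.

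The fit asked of every gene whether soleus and TA differed, with sex as a covariate, using the quasi-likelihood test of edgeR with Benjamini-Hochberg adjustment over 5115 tested genes. At an adjusted p under 0.05 it called 1128 genes, 22.1% of those tested. A filter on low counts left 7 of the 10 clock genes in the test, all but Arntl, Per1 and Per3. Of these 7, edgeR called 0 higher in soleus (0 also at an unadjusted p under 0.05 and by DESeq2) and 2 higher in TA (also 2 by DESeq2), against 11% and 11.1% of all tested genes. The log2 fold change of soleus over TA was negative for 6 of 7, with a median of -0.35 against 0.01 over all tested genes. The median of the 7 was -0.20 without soleus female 2 and -0.68 without soleus female 1. In bulk tissue, fewer cells of a type and less RNA per cell cannot be told apart. How reads shared between transcripts were counted is not given in the sources used here, so levels of different genes are not compared.

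**Figure D1:**
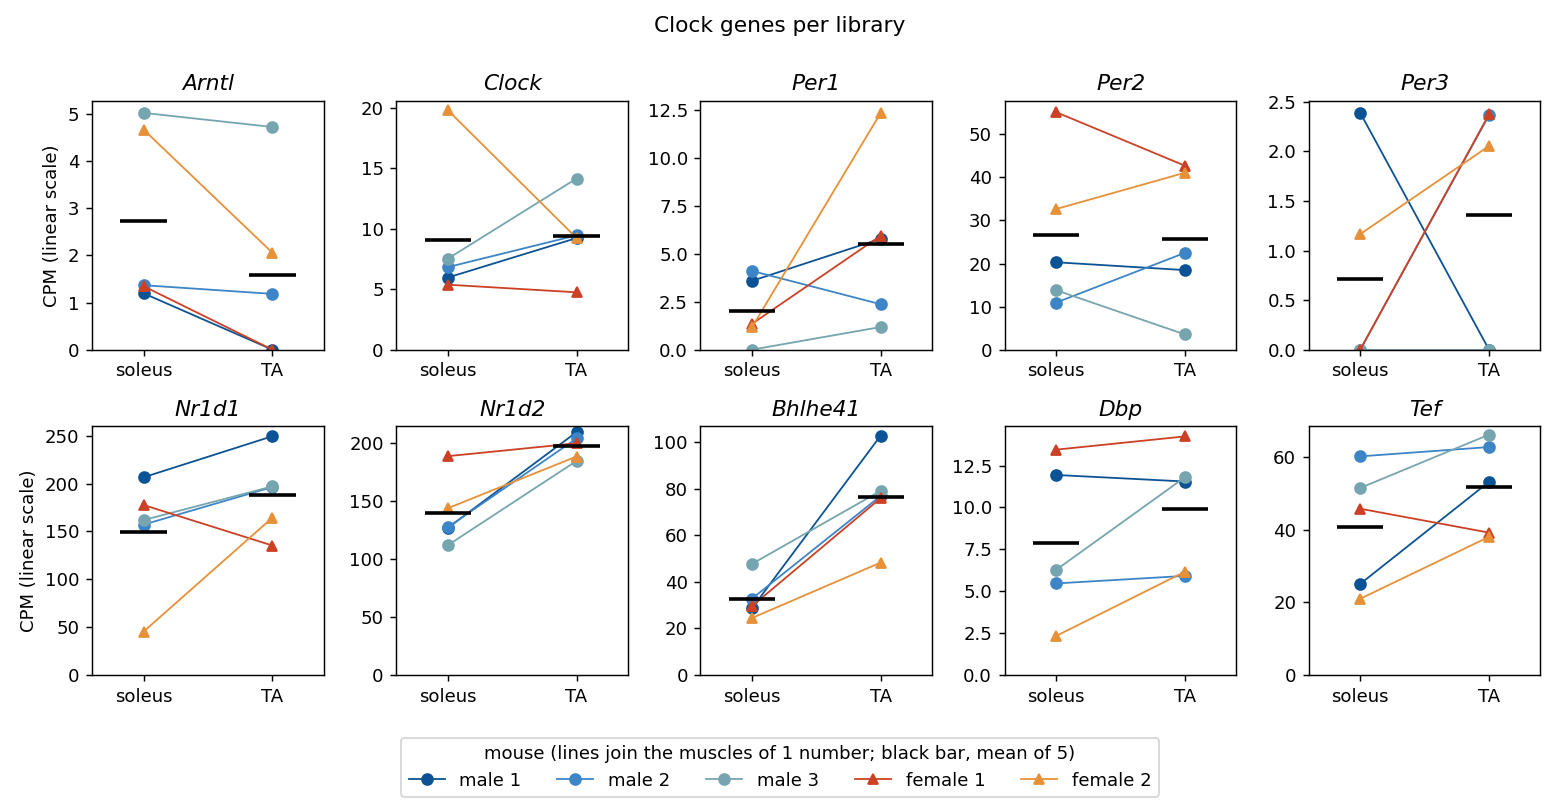
Level of each of the 10 clock genes in CPM on linear axes that start at 0, soleus at the left and TA at the right of each panel. Each point is 1 library, lines join the muscles of 1 mouse number, circles are males and triangles females, and black bars are means of 5 libraries. Bhlhe41 and Nr1d2 slope upward to TA in 5 of 5 mice, and the triangles of Per2 lie above its circles.

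The activators of the loop were counted sparsely. Arntl (GRCm38, chr7:113207465-113314126, plus strand) had 1, 1, 4, 1 and 4 counts in the soleus of male 1, male 2, male 3, female 1 and female 2, the order used throughout, against 0, 1, 4, 0 and 2 counts in TA. The mice with most counts in soleus, male 3 and female 2, also had most in TA, and each mouse had at least as many counts in soleus as in TA. The muscles overlapped. Summed, the 11 counts in soleus against 7 in TA gave a depth-scaled ratio of 1.73 with an exact 95% interval of 0.614 to 5.27, which covers counting error only. A difference in Arntl was thus not detectable at this depth. Of its 4 protein-coding transcripts, Arntl-206 alone had counts, 6 in soleus and 4 in TA, and the other counts fell on 2 transcripts with a retained intron. Each of the 4 coding transcripts has only 49 to 61 stretches of 31 bases that no other Arntl transcript holds. How shared reads were counted is not known, so these counts do not show which coding form was present.

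Clock (chr5:76209868-76304792, minus strand), the partner of BMAL1, had 5.97, 6.83, 7.53, 5.38 and 19.8 CPM in soleus, against 9.24, 9.46, 14.2, 4.75 and 9.25 CPM in TA. Soleus female 2 was the highest of all 10 libraries, and the muscles overlapped. The log2 fold change of soleus over TA was -0.04 (SE 0.44, n = 5 each, edgeR adjusted p = 0.964). Without soleus female 2 it was -0.58 (edgeR adjusted p = 0.332). Much of the excess in that library lay in 1 transcript: 11 of its 17 Clock counts fell on Clock-203, which retains an intron. Over the 5 libraries of each muscle Clock-203 had 16 counts in soleus and 5 in TA, while the protein-coding Clock-205 had 14 in soleus and 30 in TA.

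**Figure D2:**
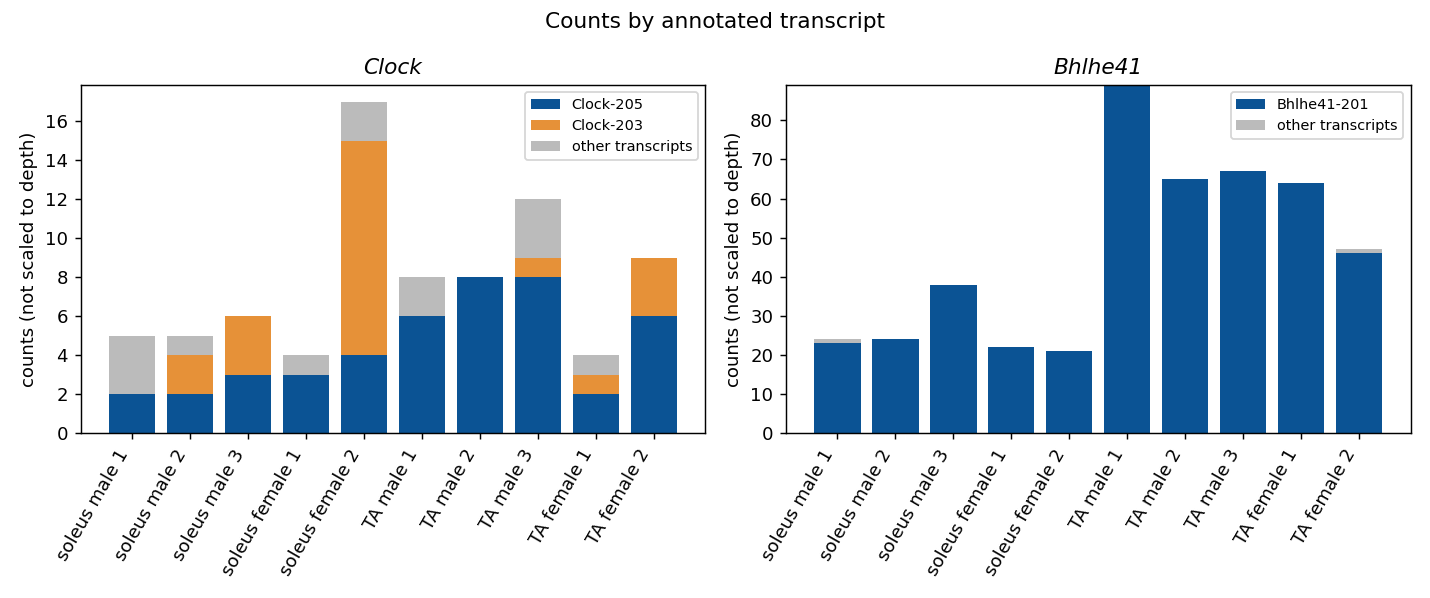
Counts of Clock (left) and Bhlhe41 (right) in each library, stacked by annotated transcript on linear axes and not scaled to depth, with the 5 soleus libraries left of the 5 TA libraries. The tall bar of soleus female 2 for Clock is mostly Clock-203, the form with a retained intron, while Bhlhe41 is nearly all Bhlhe41-201 in every library.

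The Period genes encode the repressors of the main loop. Per1, which also answers quickly to glucocorticoids and cyclic AMP, had 3, 3, 0, 1 and 1 counts in soleus, against 5, 2, 1, 5 and 12 counts in TA. It was lower in soleus in 4 of 5 mice, the exception being male 2, and TA female 2 held 12 of the 25 TA counts. The 8 counts in soleus against 25 in TA gave a ratio of 0.353 with an exact 95% counting interval of 0.138 to 0.807. This interval leaves out the variation among mice, and Per1 did not enter the test. Per3, the member of the family least needed for the rhythm itself, had 2, 0, 0, 0 and 1 counts in soleus, against 0, 2, 0, 2 and 2 in TA. No library exceeded the 3 counts taken as the floor, and no fold was drawn from it.

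Per2, the Period gene whose loss disrupts the mouse rhythm most among single members of the family, had 20.3, 10.9, 13.8, 55.2 and 32.7 CPM in soleus, against 18.5, 22.5, 3.54, 42.7 and 41.1 CPM in TA. Female 1 was the highest in both muscles, and the muscles overlapped. Soleus averaged 26.6 ± 18.03 CPM and TA 25.7 ± 16.4 CPM (SD, n = 5 each), a log2 fold change of 0.04 (SE 0.35, edgeR adjusted p = 0.953), and of 0.22 without soleus female 2. All 219 counts fell on the protein-coding Per2-201. Among mice, the mean of both muscles ran from 8.67 CPM in male 3 to 49.0 CPM in female 1. The TA value of male 3 rests on 3 counts, the number taken as the floor.

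The REV-ERB pair gave 1 call. Nr1d2 (chr14:18204054-18239127, minus strand) had 127, 127, 112, 188 and 144 CPM in soleus, against 209, 204, 184, 199 and 188 CPM in TA. It was lower in soleus in 5 of 5 mice, as were 16.2% of all tested genes, although soleus female 1 lay above the lowest TA library. The log2 fold change was -0.51 (SE 0.15, n = 5 each, edgeR adjusted p = 0.0244). The call was narrow: 6 of 10 fits without a single library lost it, with edgeR adjusted p between 0.0535 and 0.0718, among them the fit without soleus female 2 (-0.47). In females 1 and 2 TA was 1.06 and 1.31 times the soleus level, and in the 3 males 1.60 to 1.65 times, but an interaction of muscle and sex was not called (-0.48, SE 0.27, edgeR adjusted p = 0.746).

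Nr1d1 (chr11:98767932-98775333, minus strand), which encodes REV-ERB alpha, had 207, 157, 162, 178 and 45.5 CPM in soleus, against 249.5, 196, 197, 135 and 164 CPM in TA. Soleus female 2 was far below the other soleus libraries, and female 1 alone was higher in soleus. The log2 fold change was -0.35 (SE 0.27, n = 5 each, edgeR adjusted p = 0.420), and -0.10 without soleus female 2 or -0.71 without soleus female 1. The genes of REV-ERB alpha and the thyroid hormone receptor Thra overlap on opposite strands and share 263 exon bases. Whether counting used the strand is not given in the sources used here, so reads from that stretch cannot be assigned to Nr1d1 with certainty. Thra itself had 204 counts in soleus and 238 in TA.

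Bhlhe41 (chr6:145858243-145865558, minus strand) had 28.7, 32.8, 47.7, 29.6 and 24.5 CPM in soleus, against 103, 76.9, 79.1, 75.97 and 48.3 CPM in TA. Every soleus library lay below every TA library, narrowly so between soleus male 3 and TA female 2, and 7.76% of all tested genes were separated in this direction. The log2 fold change was -1.22 (SE 0.20, n = 5 each, edgeR adjusted p = 0.000771), a level 2.34-fold higher in TA. It stayed called in 19 of 19 alternative fits, with log2 fold changes from -1.35 to -1.14. Female 2 had the lowest level in both muscles. Of its 461 counts, 459 fell on Bhlhe41-201, the full-length coding transcript in both muscles.

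The PAR bZIP factors carry the rhythm to output genes. Dbp (chr7:45705088-45710203, plus strand) had 11.9, 5.47, 6.28, 13.5 and 2.33 CPM in soleus, against 11.6, 5.92, 11.8, 14.2 and 6.16 CPM in TA. Female 1 was the highest in both muscles, and the muscles overlapped (log2 fold change -0.33, SE 0.46, n = 5 each, edgeR adjusted p = 0.679). Without soleus female 2, where Dbp had 2 counts and so lay below the floor of 3, the value was -0.01. Without soleus female 1 it was -0.73. The coding transcript Dbp-201 had 26 counts in soleus and 26 in TA, and Dbp-205, which retains an intron, had 5 in soleus and 17 in TA. Dbp shares 539 exon bases with Sphk2 on the other strand, which had 16 counts in soleus and 11 in TA. Tef (chr15:81802421-81826863, plus strand) had 25.1, 60.1, 51.5, 45.7 and 21.0 CPM in soleus, against 53.1, 62.7, 66.1, 39.2 and 38.0 CPM in TA. It was lower in soleus in 4 of 5 mice, with female 2 the lowest in both muscles, and did not pass (-0.35, SE 0.25, n = 5 each, edgeR adjusted p = 0.381). The Tef value was -0.20 without soleus female 2, -0.16 without soleus male 1 and -0.59 without soleus female 1. Its counts were divided alike in the muscles between the coding forms Tef-202, with 80 counts in soleus and 118 in TA, and Tef-201, with 55 in soleus and 72 in TA. These forms begin at different start sites. Only 451 stretches of 31 bases in Tef-202 and 306 in Tef-201 lie in no other Tef transcript. The division between them may thus depend on how shared reads were counted.

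**Figure D3:**
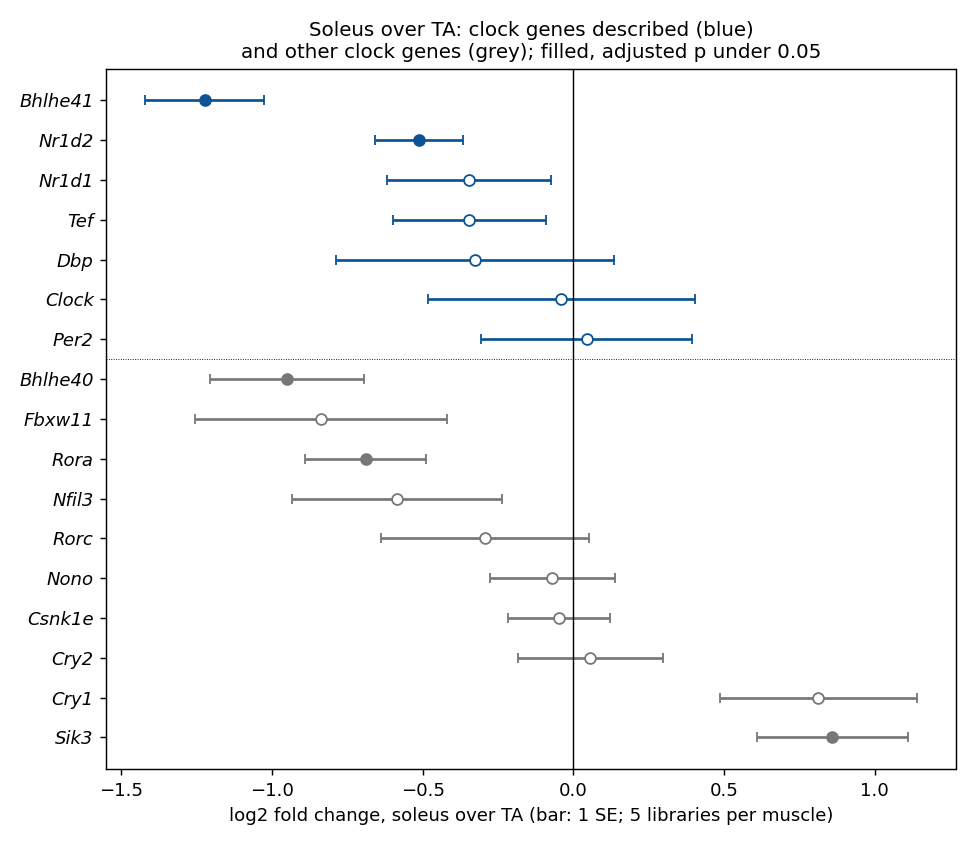
Log2 fold change of soleus over TA, with bars of 1 SE, for the 7 tested clock genes described here (blue) and 10 tested genes of a list of other clock genes (grey). Filled points have an edgeR adjusted p under 0.05, and values left of 0 are higher in TA. Bhlhe41 at -1.22 lies farthest left, and Sik3 at 0.86 farthest right.

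Differences among mice were tested over all 5 animals with the muscle as a term, which counts sex among the differences. At an edgeR adjusted p under 0.05 this called 278 genes, 5.43% of those tested, and 0 of the 7 tested clock genes, of which Per2 and Tef had an unadjusted p under 0.05, as had 17.6% of all tested genes. Per2 came nearest (F = 7.68, edgeR adjusted p = 0.0532) and crossed the threshold in 7 of 18 alternative fits, among them DESeq2 (adjusted p = 0.0359). Tef followed (F = 3.42, edgeR adjusted p = 0.273). Nr1d1 (edgeR adjusted p = 0.416) passed in 2 of 18 alternatives, without TA female 2 and without the filter on low counts (0.0204). The fit without TA female 2 left that mouse 1 library, and both fits called more genes in all than the main fit. Nr1d2, called between the muscles, had the smallest F among animals, 0.94. Some mice held the same place in both muscles, for which no share over all tested genes was computed. Female 1 was highest in both muscles for Per2 and Dbp, and male 1 for Nr1d1. Female 2 was lowest in both muscles for Tef and Bhlhe41, female 1 for Clock and male 3 for Nr1d2. Several of these places were close. In soleus, Dbp had 10 counts in female 1 and 10 in male 1, and Clock had 4 in female 1 against 5 in male 1 and male 2. In TA, Per2 was at 42.7 CPM in female 1 and 41.1 CPM in female 2, and Nr1d2 at 184 CPM in male 3 and 188 CPM in female 2.

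Male and female mice were also compared within each muscle. Per2 averaged 15.0 ± 4.80 CPM in male soleus (SD, n = 3) and 43.9 ± 15.9 CPM in female soleus (SD, n = 2), and 14.8 ± 9.98 CPM in male TA (SD, n = 3) and 41.9 ± 1.16 CPM in female TA (SD, n = 2). The log2 fold change of male over female was -1.52 in soleus (SE 0.51, edgeR adjusted p = 0.166) and -1.49 in TA (SE 0.50, edgeR adjusted p = 0.260), and neither passed. With no filter on low counts both passed (edgeR adjusted p = 0.0204 in soleus and 0.0292 in TA). Each muscle was tested over all genes, which called 28 genes in soleus, 0.547%, and 35 in TA, 0.684%, with 0 clock genes in each. At an unadjusted p under 0.05 there were Per2 and Nr1d2 in soleus, against 16.5% of all tested genes, and Per2 in TA, against 11.7%. Both female mice lay above all male mice in both muscles for 4.54% of the tested genes, Per2 among them. The immediate early genes were also high in both female TA libraries and in soleus female 2, and with 2 females sex and other differences between single animals cannot be told apart.

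Nr1d1 ran the other way without passing. Its male over female value was 0.66 in soleus (SE 0.42, edgeR adjusted p = 0.464) and 0.52 in TA (SE 0.41, edgeR adjusted p = 0.698). The soleus value rested on female 2: it was -0.02 without that library and 2.06 without soleus female 1. Each of these fits left 1 female soleus library. Nr1d2 had a male over female value of -0.44 in soleus (SE 0.19, edgeR adjusted p = 0.282) and 0.04 in TA (SE 0.19, edgeR adjusted p = 0.958). The soleus value of Nr1d2 was -0.12 without soleus female 1 and -0.63 without soleus female 2. The interaction of muscle and sex was called for 0 genes (edgeR, 0%), with 351 genes at an unadjusted p under 0.05 and 0 called with the mouse blocked, and none of them was a clock gene described here.

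**Figure D4:**
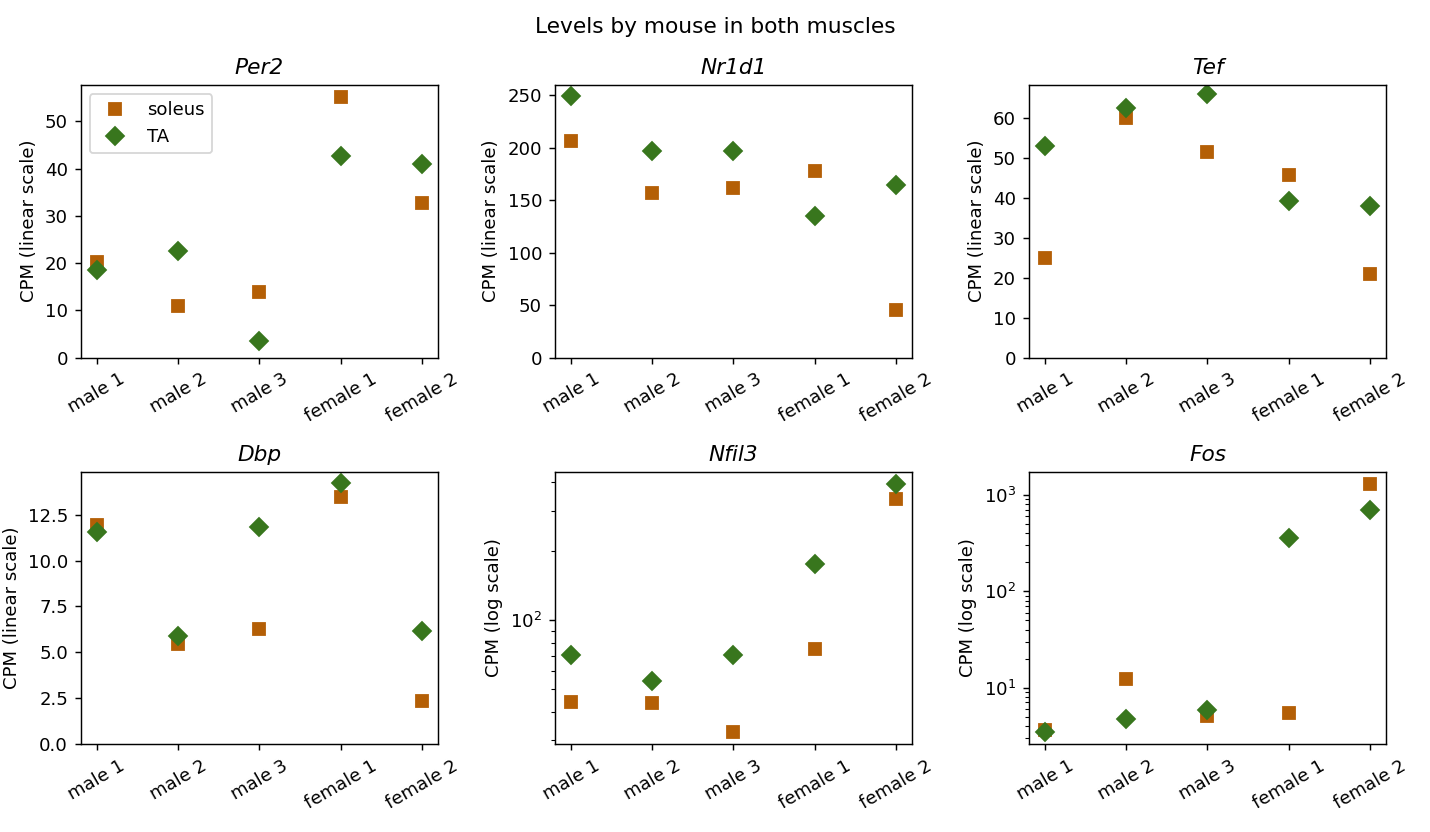
Level in CPM by mouse for Per2, Nr1d1, Tef and Dbp (linear axes from 0) and for Nfil3 and Fos (log axes), with soleus as squares and TA as diamonds, 1 library each. Per2 is high in both muscles of both females. Nr1d1 is low in the soleus of female 2, the library in which Fos reaches 1297 CPM.

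Of a list of 19 other clock genes, 10 were tested, of which 1 was higher in soleus and 2 higher in TA, near the 11% and 11.1% of all tested genes, with a median log2 fold change of -0.18. Bhlhe40, which encodes DEC1, the close relative of DEC2, had 84.8, 56.0, 61.5, 48.4 and 129.5 CPM in soleus, against 134, 109, 89.7, 185 and 249.7 CPM in TA. It was lower in soleus in 5 of 5 mice (-0.95, SE 0.26, n = 5 each, edgeR adjusted p = 0.0182), with female 2 the highest in both muscles, whereas the same mouse was the lowest for Bhlhe41. Rora, a nuclear receptor that activates Arntl through the element REV-ERB also binds, averaged 160 ± 44.0 CPM in soleus and 257 ± 90.6 CPM in TA (SD, n = 5 each). Its log2 fold change was -0.69 (SE 0.20, edgeR adjusted p = 0.0267), lower in soleus in 5 of 5 mice, and the call was lost in 5 of 10 fits that left out 1 library. Sik3, a kinase that acts on the stability of PER2 in mice, averaged 24.5 ± 4.50 CPM in soleus and 13.6 ± 3.50 CPM in TA (SD, n = 5 each), without overlap. Of all tested genes 7.27% were separated in this direction. The Sik3 call (0.86, SE 0.25, edgeR adjusted p = 0.0274) was lost in 5 of 10 fits that left out 1 library, in males alone (0.55) and with no filter on low counts (edgeR adjusted p = 0.142).

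The remaining repressors of the loop showed no call between the muscles. Cry2, a partner of the PER proteins, averaged 31.1 ± 6.41 CPM in soleus and 30.4 ± 10.7 CPM in TA (SD, n = 5 each, log2 fold change 0.06, SE 0.24, edgeR adjusted p = 0.907). Cry1, the close relative of Cry2, averaged 35.3 ± 17.2 CPM in soleus and 20.8 ± 10.7 CPM in TA (SD, n = 5 each, log2 fold change 0.81, SE 0.33, edgeR adjusted p = 0.0988), with soleus female 2 the highest library at 65.3 CPM. Csnk1e, a kinase of the PER proteins, and Nono, a partner of PER, had log2 fold changes of -0.05 and -0.07. Nfil3, a repressor that binds the D-box, was the 1 gene of this list called among animals (edgeR adjusted p = 0.000169). It had 44.2, 43.7, 32.6, 75.3 and 337 CPM in soleus, against 70.5, 54.4, 70.8, 176 and 392.5 CPM in TA, with female 2 the highest in both muscles. In the 3 males alone Nfil3 was not called among animals (edgeR adjusted p = 0.914).

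Genes known to follow the clock in muscle were listed as well. Of 20 listed, 11 were tested; edgeR called 2 toward soleus and 0 toward TA, against 11% and 11.1% of all tested genes (median -0.16). Tcap, a sarcomere protein regulated by the clock in mice, averaged 6956 ± 967 CPM in soleus and 3080 ± 597.5 CPM in TA (SD, n = 5 each, log2 fold change 1.18, SE 0.15, edgeR adjusted p = 0.000154). Lpl, lipoprotein lipase, which frees fatty acids from blood lipid, differed by 2.16 (SE 0.13, edgeR adjusted p = 2.67e-07). Adipocytes also make Lpl. Of 7 genes listed as adipocyte markers, all 3 tested (Adipoq, Car3 and Cidea) were higher in soleus, against 11% of all tested genes. Over all 7, Car3 among them, the sum was 3866 to 5995 CPM in soleus and 702 to 3941 CPM in TA. Whether these reads came from adipocytes or from muscle fibers was not tested, nor was the part of adipocytes in the Lpl value. Pdk4, which turns down the use of glucose, and Ucp3, a mitochondrial carrier, were called among animals (edgeR adjusted p = 0.0016 and 0.0138), against 5.43% of all tested genes, and male 2 was the highest for each in both muscles. The Ucp3 call was lost in 4 of 10 fits that left out 1 library, those without either muscle of male 1 or male 2, with edgeR adjusted p between 0.0508 and 0.137. Hk2, Nampt, Usp2 and Myod1 had log2 fold changes of -0.03, 0.02, -0.46 and -1.29, and none passed.

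Glucocorticoids set peripheral clocks and act directly on Per1, so 17 genes that respond to them were listed too, of which 13 were tested. Of these edgeR called 0 higher in soleus and 2 higher in TA, against 11% and 11.1% of all tested genes (median -0.29). Sgk1, a kinase, averaged 6.69 ± 3.29 CPM in soleus and 16.4 ± 3.61 CPM in TA (SD, n = 5 each, log2 fold change -1.30, SE 0.32, edgeR adjusted p = 0.0121). Cebpd, a transcription factor, differed by -1.07 (SE 0.26, edgeR adjusted p = 0.00976). Among animals, Cebpd and the metallothioneins Mt1 and Mt2 were called (edgeR adjusted p = 0.00375, 0.0236 and 0.0127), against 5.43% of all tested genes, each highest in TA female 2 of the 5 TA libraries. Klf9, Cebpb, Zbtb16 and Foxo1 had log2 fold changes of -0.50, 0.53, -0.04 and -0.29, and none passed.

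Of 13 immediate early genes 10 were tested, of which edgeR called 0 between the muscles (0 also at an unadjusted p under 0.05) and 9 among animals, against 5.43% of all tested genes. The 9 were Fos, Jun, Junb, Egr1, Atf3, Ier2, Ier3, Klf6 and Btg2, and Klf4 did not pass (edgeR adjusted p = 0.199). Fos had 3.58, 12.3, 5.02, 5.38 and 1297 CPM in soleus, against 3.46, 4.73, 5.90, 357 and 693.5 CPM in TA. The females, apart from the soleus of female 1, stood above all males. Red blood cell markers also differed among animals, with 5 of 6 called, against 5.43% of all tested genes. These markers summed to 266 to 37630 CPM in soleus and 1603 to 22260 CPM in TA. Their part in the Per2 and Nr1d1 values was not tested.

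Markers of other cells differed in both directions. Of 7 endothelial genes 4 were tested, and 3 (Cdh5, Flt1 and Kdr) were higher in TA, against 11.1% of all tested genes, while the other was positive and did not pass. Their sum was 269 to 324 CPM in soleus and 350 to 905 CPM in TA, without overlap. Of 7 markers of smooth muscle and pericytes, 2 of the 4 tested (Notch3 and Rgs5) were higher in TA, against the same 11.1%. Toward soleus, beside the genes listed as adipocyte markers, 5 of 5 tested tenocyte genes were positive, as were 2577 of all 5115 tested genes. Of the 5, Comp alone was called, against 11% of all tested genes. Blood vessels express clock genes as well, and the part of these cells in the levels of Bhlhe41, Nr1d2, Bhlhe40 and Rora was not tested.

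Among 4265 other tested genes averaging 10 CPM or more, those whose log2 CPM followed Bhlhe41 most closely over the 10 libraries were Pgam2, the muscle phosphoglycerate mutase (Pearson r = 0.962), Oma1, a mitochondrial protease (0.959), Ube3c, a ubiquitin ligase (0.951), Ky, a protein of the muscle cytoskeleton (0.950), and Tmem37 (0.949). These points share the muscle difference, and all 5 genes were also lower in soleus. An r of 0.8 or more with Bhlhe41 was reached by 221 genes, 5.18%. Dbp was compared with the mean of each muscle removed, and S100a1, a calcium-binding protein, followed it most closely (r = 0.942), before Tstd3 (0.926), Ap3m1 (0.921), Smim14 (0.909) and Cdk16 (0.888). Only 43 of 4266 genes, 1.01%, reached 0.8 with Dbp. Each Dbp value rests on 2 to 12 counts, and no p is given for these correlations, which share libraries and depth.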

How the data were processed

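The deposited files list, for each of 10 libraries, raw read counts per Ensembl transcript, and a transcript without a read is not listed. Per the labels' protocols, total RNA went into a Tag-Seq preparation with a Takara SMART-Seq Stranded kit. The submitters' processing notes name bcl2fastq, Trimmomatic 0.32, FastQC and GRCm38.p4; the aligner, the counting tool and its use of strand are not given in the sources used here. Of 40414 transcripts, 40359 matched GENCODE M21 (GRCm38) by identifier and were summed to genes. Totals ran from 726414 to 961844 counts per library, and intervals cover counting error only.

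R 4.3.3 with edgeR 4.0.16 (filterByExpr over 4 groups of muscle and sex, TMM scaling, quasi-likelihood F test, Benjamini-Hochberg threshold 0.05) tested 5115 genes. The 5 fits were soleus against TA with sex as covariate, differences among mice, male against female in each muscle, and their interaction. The fits were also run on simulated data, where a set outcome was required of the soleus against TA fit only. For the other fits these runs are no evidence that a difference would be found. Replicate numbers were read as mice. With the mean of each muscle and sex taken out, the libraries sharing a number had r of 0.229, 0.184 and 0.239 in males and 0.285 in females over these genes, against at most -0.07 between males of different numbers. Taking out the means makes the r between numbers negative on average wherever the r within numbers is positive. The negative values are therefore no separate evidence. Nothing in the labels says more about the animals, so p-values measure the spread between these libraries.

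The genes and lists were chosen with earlier results of these data known. From the lists, every gene called between muscles or among animals was named, with up to 4 more of highest mean level, and the 5 genes most like Bhlhe41 and Dbp. Alternatives were DESeq2 1.42.0 size factors and test, upper-quartile scaling, other filters, protein-coding transcripts only, libraries without the 2 most counted genes, each library left out, each mouse as a block, and males only, the last added after seeing the data. Promoters came from RefSeq (GRCm38.p6) for 9 of 10 genes by symbol. Fbxo32 and Jund of the lists are not analysed here, and 1 gene of the list of other clock genes is not reported here and was left out of its counts. Tables, intervals and plots were made in Python 3.11.15 (scipy 1.17.1 for intervals, pandas 2.3.3 for tables, matplotlib 3.10.9 for plots).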

Additional observations from a re-analysis of the deposited data

Results flagged for a closer look

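In groups of 5 libraries, a library was singled out when its gap to the nearest of the others exceeded 0.71 of the whole range (Dixon's 95% criterion). By chance this criterion flags about 1 in 20 groups that are independent and chosen without regard to the data. Here 81 groups were examined, which gave 21 such values. Many of the genes were named because they were called in these data, and the groups share libraries. The 21 values therefore cannot be set against that rate. Groups with few counts were left out. Of the 10 clock genes described, Clock had such a value: soleus female 2 at 19.8 CPM, against 7.53 CPM in the next library.

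The same library was the highest soleus library for 13 more genes in which it stood apart, 9 of them immediate early genes. It held 1297 CPM of Fos (next 12.3 CPM), 1011 CPM of Jun (next 338 CPM), 706 CPM of Junb (next 50.2 CPM) and 33.8 CPM of Egr1 (next 1.34 CPM). Atf3 reached 73.5 CPM there, Ier2 126 CPM, Ier3 94.5 CPM, Klf6 335 CPM and Klf4 170.3 CPM. Nfil3, the D-box repressor, reached 337 CPM, against 75.3 CPM in the next soleus library, Cry1, a repressor of the main loop, 65.3 CPM, against 33.9 CPM, and Myod1, a muscle regulator with a clock-driven rhythm in mice, 60.6 CPM, against 10.9 CPM. The metallothionein Mt2 reached 37.3 CPM there, against 9.57 CPM.

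TA female 2 stood above the other TA libraries for Mt1 (59.6 CPM), Mt2 (56.5 CPM) and Foxo1 (315 CPM, against 112 CPM in the next). Soleus female 1 was the highest for Tcap (8634 CPM, next 6788 CPM) and for Usp2, a ubiquitin protease with a strong daily rhythm (130.5 CPM, next 72.9 CPM). On the low side stood TA male 2 for Hk2 (233 CPM, next 413 CPM) and TA male 3 for Klf9 (319 CPM, next 466.1 CPM).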

How the results depend on the processing

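Between soleus and TA, Bhlhe41, Bhlhe40, Tcap, Lpl and Cebpd stayed called in all 19 alternatives, and the count of 1128 genes stayed within 1.5 times. The directions of Clock and Per2, near 0, turned. Clock (-0.04) ran from -0.58 to 0.095 over fits without 1 library, and Per2 (0.04) from -0.19 to 0.23, or -0.0057 with no filter on low counts. Nr1d2 lost its call with no filter (edgeR adjusted p = 0.0738) and in 6 fits without 1 library, Sik3 with no filter (0.142) and in males only (0.201), and Sgk1 with protein-coding transcripts only (0.0699). Male over female for Nr1d1 in soleus (0.66) ran from -0.023 to 2.06 over such fits. With each mouse as a block edgeR called 1207 genes, 1068 of them shared; Nr1d2 (-0.52) and Bhlhe41 (-1.22) stayed called, and no other clock gene described changed its call.

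The other counts of genes depended on settings. Differences among animals were called for 278 genes, for 771 with no filter, for 181 in males only and for 128 to 963 without 1 library, the highest without TA female 2 and the lowest without soleus male 1. Male against female in soleus was called for 28 genes, 449 with no filter, and 1 (without soleus male 1) to 1004 (without soleus female 1). In TA the count was 35, 240 with no filter, and 1 (without TA male 1 or 2) to 165 (without soleus female 1). The interaction had 0, 58 with no filter, and 0 to 82. The causes were not tested. Arntl, Per1 and Per3, at 9 to 33 counts over 10 libraries, were too shallow for the test.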

Other observations

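Close relatives of the genes described, looked at once the other values were known, also fell below the filter on low counts. Hlf, the third PAR bZIP factor beside Dbp and Tef, had 1, 3, 3, 3 and 2 counts in soleus, against 5, 6, 6, 4 and 9 counts in TA. Every soleus library lay below every TA library, but none exceeded the 3 counts taken as the floor, and the lowest TA library had 4. Of all tested genes 7.76% were separated in this direction, and Hlf was not among those tested. The 12 counts in soleus against 30 in TA gave a ratio of 0.441 with an exact 95% counting interval of 0.206 to 0.887. Arntl2, a relative of Arntl, had 31 counts in soleus and 13 in TA (ratio 2.63, interval 1.34 to 5.48), of which 18 lay in soleus female 2. Without that library Arntl2 had 13 counts in soleus and 13 in TA (ratio 1.41, interval 0.601 to 3.29). Npas2, which can stand in for Clock in mice, had 21 counts in soleus and 19 in TA (ratio 1.22, interval 0.624 to 2.40). The intervals cover counting error only, and none of these genes was tested across mice.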
